A study of Mus musculus with 17 samples.

Results

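The genes described here are 33 heat shock proteins and chaperones of mouse CD8+ T cells, taken as a list of gene symbols. The rule uses no measured value, but the list was drawn up with earlier results of these data known. They make up 33 of the 53679 genes in the count tables, and all 33 passed the filter on low counts that left 16246 genes for testing. By role they are 5 HSP70 genes, 2 HSP110 genes, 3 HSP90 genes, the HSP60 and HSP10 pair, 5 J-domain genes, 7 co-chaperones, the factor Hsf1, and the 8 subunits of the chaperonin TRiC. RNA was sequenced from CD8+ T cells of C57BL/6 mice, with Cblb intact (wild type, WT) or knocked out (KO). The product of this gene, Cbl-b, attaches ubiquitin to signalling proteins and restrains T cell activation. Each genotype was unstimulated, stimulated for 12 h with anti-CD3, an antibody to the signalling chains of the T cell receptor, or stimulated for 12 h with anti-CD3 together with anti-CD28, an antibody to a costimulatory receptor (written below as both antibodies). Every group had 3 libraries except WT with both antibodies, which had 2 (replicates 2 and 3). The sample titles give no time in culture for unstimulated cells, so antibody and time in culture cannot be told apart in comparisons with them. The labels do not give the animals' age or the part of Cblb removed. Nor do they say that each replicate is another animal, so the p-values describe only how far these samples spread, and that spread may be technical.

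Molecular chaperones bind unfolded proteins and help them to fold, assemble or be degraded. HSP70 proteins bind short exposed stretches in cycles driven by ATP, J-domain proteins deliver substrates to them, and HSP110 proteins release the bound nucleotide. HSP90 completes the folding of kinases and receptors, many of them signalling proteins of T cells, while HSP60 with HSP10 folds proteins inside mitochondria and TRiC folds actin and tubulin in the cytosol. Heat shock factor 1 (Hsf1) binds heat shock elements in the promoters of many of these genes when unfolded proteins accumulate, and T cells are known to make more chaperones as they enlarge and prepare to divide.

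Total counts ranged from 16635826 to 38269033 in 16 libraries and were 160059285 in KO unstimulated replicate 2. The 8 markers of the CD8 T cell list, most of them shared by all T cells, summed to 2450 to 4575 CPM (counts scaled to a common library total) in every library. The 4 CD4 T cell markers summed to 2.05 to 4.06 CPM, the 6 myeloid markers to 0.675 to 3.17, the 3 NK markers to 0.626 to 4.53, the 4 erythroid markers to 0.267 to 3.47, and the 6 B cell markers to 158 to 435. The B cell sum was 303 to 355 in WT unstimulated, 364 to 435 in KO unstimulated, 235 to 273 in stimulated WT and 158 to 231 in stimulated KO libraries, so it moved with the groups, and its part in the results was not tested. No gene of these lists was at 0 in every library. Cblb lay between 140 and 190 CPM in WT libraries and between 63.9 and 95.9 in KO libraries, with no overlap. Of 10 housekeeping genes, 3 were higher and 1 lower in KO than in WT without stimulation, against 15.3% and 10.1% of all genes. With anti-CD3 2 were higher and with both antibodies 3, against 10.5% and 9.84% of all genes. After GC correction 2, 3 and 4 were higher and 0 lower in the same order. Of all genes 3.43%, 10.8% and 9.94% were then higher and 3.02%, 11.6% and 7.69% lower. Libraries also differed in a trend with GC content: the difference in median log2 deviation between GC-rich genes (56% and above) and GC-poor genes (40% and below) ran from -0.69 to -0.29 in WT unstimulated, 0.15 to 1.08 in KO unstimulated, -0.40 to -0.11 in WT anti-CD3, 0.09 to 0.22 in KO anti-CD3, 0.49 to 0.53 in WT both and -1.07 to 0.34 in KO both. Because this tilt moved with the groups, counts are also given below after a correction for GC content. The mitochondrial share of counts was 4.12% to 5.54% in WT unstimulated and 2.25% to 3.91% in the other groups. The share of the small cytoplasmic and nuclear RNAs 7SL and 7SK was 3.98% to 6.05% in WT and 7.83% to 13.1% in KO unstimulated, 4.63% to 6.49% and 7.33% to 8.12% with anti-CD3, and 9.94% to 11.4% and 2.65% to 9.45% with both antibodies. These shares moved with the groups compared, and their part in the results was not tested.

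RefSeq promoter windows (250 bases before to 50 bases after a gene's start, GRCm38.p6) were found for 26 of the 33 genes. A heat shock element was searched on both strands as GAANNTTC or TTCNNGAA, that is 2 facing repeats of the unit bound by heat shock factors. It occurred in 14 of the 26 genes and in 16.97% of all 27025 genes with a window. The longer form of 3 repeats (GAA, TTC and GAA, each parted by 2 bases of any kind), which contains the shorter forms, occurred in Hspd1, Hspe1, Dnajb6, Hsph1 and Chordc1 and in 0.662% of all genes. The ER stress element (CCAAT and CCACG parted by 9 bases of any kind), which is bound by factors of the response to unfolded proteins in the endoplasmic reticulum, occurred in Hspa5 and Hsp90b1 and in 0.137% of all genes. A match is a description of letters and shows no binding. The windows shown are those of the inducible HSP70 pair, of 3 genes that hold the longer heat shock element and of the 2 that hold the ER stress element. They run 5′ to 3′ in the direction of the gene, with matches in capitals, the N positions included.
Hspa1a, chr17:34972107-34972406, minus strand: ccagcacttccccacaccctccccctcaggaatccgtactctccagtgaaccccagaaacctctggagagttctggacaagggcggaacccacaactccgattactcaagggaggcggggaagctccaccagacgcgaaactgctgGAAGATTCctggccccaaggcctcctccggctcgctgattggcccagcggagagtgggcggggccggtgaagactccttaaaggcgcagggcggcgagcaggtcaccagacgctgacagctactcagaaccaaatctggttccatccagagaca
Hspa1b, chr17:34959189-34959488, minus strand: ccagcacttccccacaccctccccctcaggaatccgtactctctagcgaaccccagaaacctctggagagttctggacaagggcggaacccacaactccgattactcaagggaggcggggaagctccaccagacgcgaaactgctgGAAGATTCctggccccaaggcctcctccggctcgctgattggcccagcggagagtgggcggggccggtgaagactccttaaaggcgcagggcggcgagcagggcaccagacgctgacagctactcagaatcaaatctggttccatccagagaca
Hspe1, chr1:55087898-55088197, plus strand: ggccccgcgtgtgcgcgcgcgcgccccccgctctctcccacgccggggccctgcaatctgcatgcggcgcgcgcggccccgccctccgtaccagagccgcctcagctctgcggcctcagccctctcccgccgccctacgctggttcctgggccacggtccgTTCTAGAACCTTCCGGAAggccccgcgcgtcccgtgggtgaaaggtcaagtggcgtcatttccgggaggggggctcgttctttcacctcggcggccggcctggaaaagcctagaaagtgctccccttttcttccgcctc
Hsph1, chr5:149636266-149636565, minus strand: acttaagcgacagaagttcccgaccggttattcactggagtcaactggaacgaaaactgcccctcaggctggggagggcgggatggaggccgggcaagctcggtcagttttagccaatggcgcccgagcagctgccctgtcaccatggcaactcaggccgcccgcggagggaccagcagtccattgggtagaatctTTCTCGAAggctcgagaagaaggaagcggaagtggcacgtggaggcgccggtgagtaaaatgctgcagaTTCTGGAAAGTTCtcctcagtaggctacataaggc
Chordc1, chr9:18292017-18292316, plus strand: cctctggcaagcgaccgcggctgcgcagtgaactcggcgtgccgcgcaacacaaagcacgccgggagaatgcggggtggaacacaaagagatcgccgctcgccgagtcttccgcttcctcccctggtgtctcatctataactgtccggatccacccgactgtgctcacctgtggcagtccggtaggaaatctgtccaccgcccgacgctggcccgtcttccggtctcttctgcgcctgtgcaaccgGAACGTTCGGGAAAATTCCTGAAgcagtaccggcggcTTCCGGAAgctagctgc
Hspa5, chr2:34771840-34772139, plus strand: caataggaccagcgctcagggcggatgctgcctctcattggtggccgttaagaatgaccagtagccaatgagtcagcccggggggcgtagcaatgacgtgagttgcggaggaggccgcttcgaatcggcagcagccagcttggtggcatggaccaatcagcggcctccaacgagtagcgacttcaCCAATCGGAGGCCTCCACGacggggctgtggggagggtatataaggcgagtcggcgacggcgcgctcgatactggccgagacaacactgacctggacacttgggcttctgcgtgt
Hsp90b1, chr10:86705395-86705694, minus strand: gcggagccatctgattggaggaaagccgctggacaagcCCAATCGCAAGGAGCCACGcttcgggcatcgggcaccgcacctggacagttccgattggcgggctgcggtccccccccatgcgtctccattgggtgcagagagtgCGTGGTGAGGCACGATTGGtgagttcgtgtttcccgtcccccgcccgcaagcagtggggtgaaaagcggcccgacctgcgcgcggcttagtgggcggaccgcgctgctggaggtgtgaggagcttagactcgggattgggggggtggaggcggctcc

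The windows of Hspa1a and Hspa1b matched at 296 of 300 bases and each held 1 heat shock element of the short form, beginning 104 bases before the start. The Hspe1 window held 3 overlapping short matches between 89 and 79 bases before its start, and a second Hspd1 window on the opposite strand covers nearly the same bases. The Hsph1 window held matches both 54 bases before the start and after it, and that of Chordc1 held a run of overlapping matches that begins 4 bases before the start. The Hspa5 window held 1 ER stress element, 65 bases before the start, and that of Hsp90b1 held 2, beginning 212 and 107 bases before the start.

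After stimulation most chaperone transcripts were higher in KO than in WT cells. Before stimulation 8 of the 33 differed as counted, close to the 25.4% of all genes. After GC correction 7 differed there, against 6.45% of all genes. The 33 genes took 0.854% to 0.909% of all counts in WT unstimulated libraries and 0.779% to 0.787% in KO unstimulated libraries. With anti-CD3 they took 1.15% to 1.17% in WT and 1.46% to 1.73% in KO, and with both antibodies 0.868% to 0.903% in WT and 1.19% to 1.74% in KO. The 2 genotypes did not overlap in any state. In these bulk samples fewer cells of a type and less RNA per cell cannot be told apart.

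With anti-CD3, 18 of the 33 genes were higher in KO than in WT and 0 were lower by edgeR's quasi-likelihood test (Benjamini-Hochberg adjusted p under 0.05), against 10.5% higher and 4.8% lower of all genes tested. The median log2 difference of the 33 was 0.49, against 0.04 over all genes. With both antibodies 25 were higher and 0 lower, against 9.84% and 6.3% of all genes, with a median of 0.69. In unstimulated cells 3 were higher (Fkbp4, Cdc37 and Hsf1) and 5 lower (Hspa1a, Hspa1b, Hsph1, Dnaja1 and Dnajb1), against 15.3% and 10.1% of all genes, with a median of -0.13. The 8 are read against 25.4% of all genes called there in either direction. When single libraries of the anti-CD3 groups were left out, the count of 18 dropped to 8 (KO replicate 3), 11 (WT replicate 1), 12 (WT replicate 2) and 10 (WT replicate 3). The count with both antibodies was 0 without either of the 2 WT libraries, where 40 and 11 of all genes were called, and 0 when only these 2 groups were fitted, where 0 of all genes were called. After GC correction 25 were higher and 0 lower with anti-CD3, against 10.8% higher and 11.6% lower of all genes, and 24 were higher and 0 lower with both antibodies, against 9.94% and 7.69%. Without stimulation 2 were higher and 5 lower after the correction, against 3.43% and 3.02% of all genes. Without stimulation Fkbp4 and Hsf1 lost their calls with it, and the value of Fkbp4 went from 0.45 to -0.01. No gene of the 33 was called in opposite directions with and without it.

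**Figure D1:**
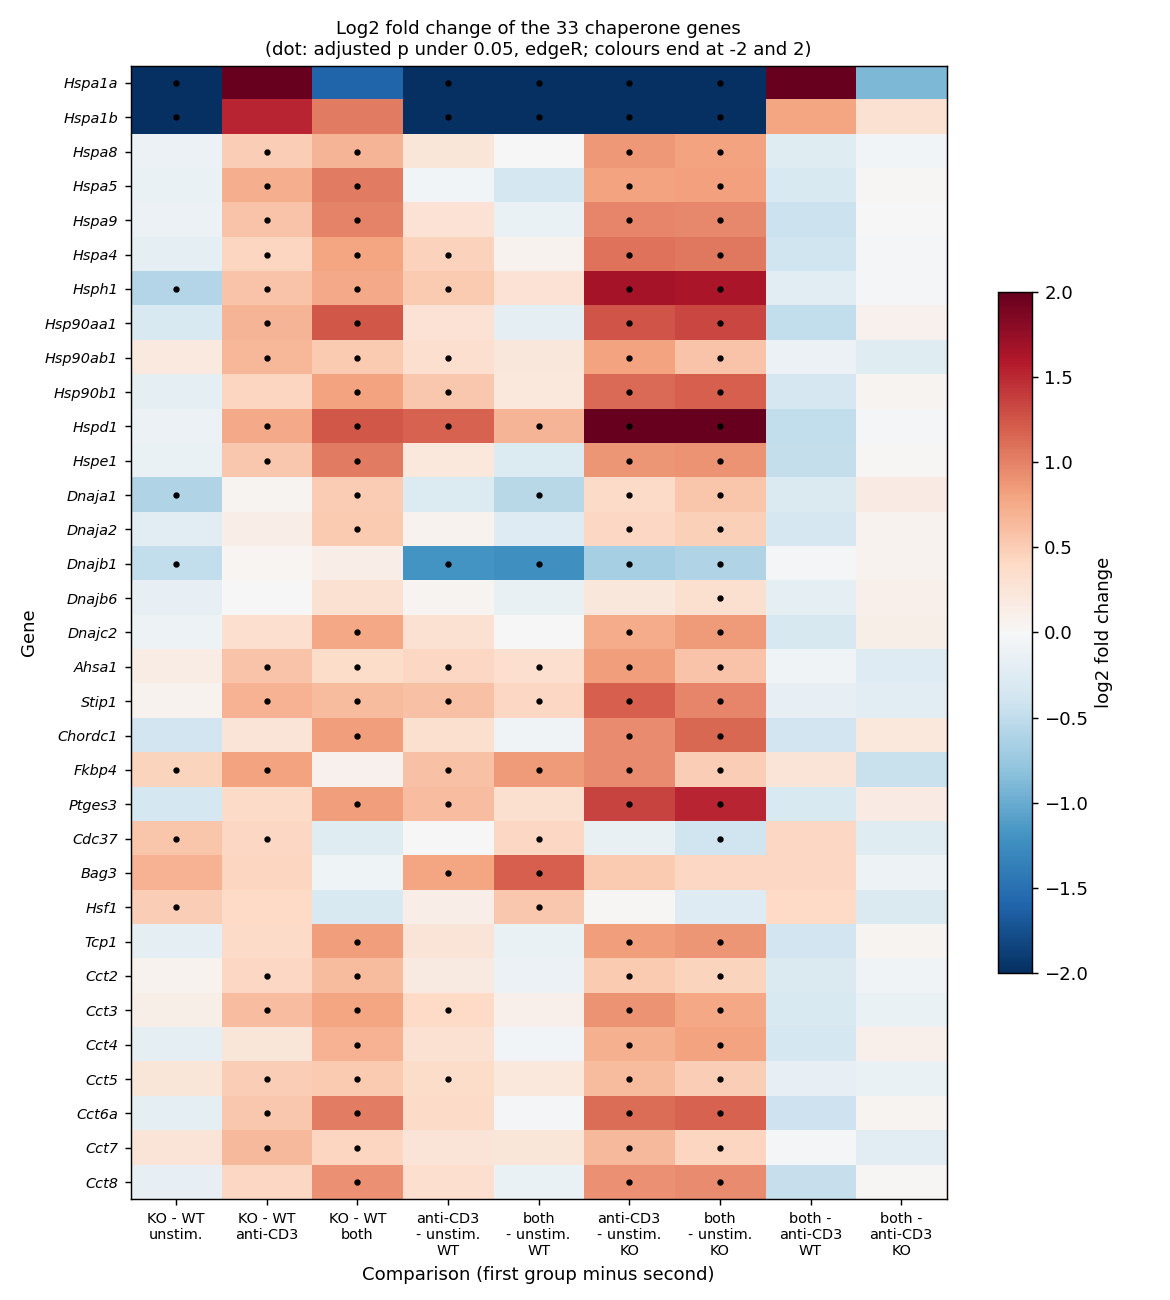
Log2 fold changes of the 33 genes (vertical axis) in 9 comparisons (horizontal axis), with dots where adjusted p was under 0.05. The KO columns for stimulation are red over most genes, Hspa1a, Hspa1b and Dnajb1 are blue in all 4 columns of stimulation against none, and the last 2 columns hold no dot. The colours of Hspa1a and Hspa1b between stimulated groups rest on near-zero counts.

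The stress-inducible HSP70 genes Hspa1a and Hspa1b were highest in unstimulated cells, lower there in KO than in WT, and close to 0 after stimulation. They lie on chr17 at 34969190 to 34972156 and 34956436 to 34959238 (GRCm38) and share 48.6% and 49.9% of their 100-base stretches, so their counts were summed. The summed level was 37.4, 80.6 and 29.4 CPM in the WT unstimulated libraries and 3.14, 19.7 and 9.31 in the KO unstimulated libraries, without overlap. In stimulated libraries it was 0.315 to 0.341 in WT anti-CD3, 0.675 and 0.734 in WT both, 0.844 to 1.07 in KO anti-CD3 and 0.680 to 1.55 in KO both, on 6 to 40 counts a library. The KO against WT difference in unstimulated cells was -2.13 ± 0.48 (log2 ± SE, adjusted p = 0.011, edgeR), a 4.38-fold lower level, and it was -2.91 after GC correction. Leaving out 1 of these 6 libraries in turn gave -2.99 to -1.59, with adjusted p from 0.0142 to 0.0447.

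The fall of the summed Hspa1a and Hspa1b with anti-CD3 was 147-fold in WT (-7.20 ± 0.70 on the log2 scale, edgeR, adjusted p = 4.82e-06) and 11.3-fold in KO (SE 0.60 on the log2 scale, adjusted p = 0.000452). With both antibodies it was -6.12 ± 0.78 in WT and -3.29 ± 0.61 in KO (edgeR, adjusted p = 7.65e-05 and 0.000714). The difference between the genotypes' falls was 3.71 ± 0.97 for anti-CD3 (edgeR, adjusted p = 0.163) and 2.83 ± 1.02 for both antibodies (adjusted p = 0.0433). After GC correction the latter was 4.18 ± 1.12 (adjusted p = 0.0283), with a fall in WT of 114-fold in place of 69.4-fold and in KO of 6.33-fold in place of 9.75-fold. A gene annotated on the strand opposite Hspa1a had at most 1 count in any library. A set of 10 immediate-early genes, which respond within minutes to handling and to receptor signals, summed to 1285 to 1551 CPM in WT unstimulated, 1331 to 2050 in KO unstimulated and 289 to 459 in stimulated libraries. Of the 10, 7 fell with anti-CD3 in each genotype, against 13.1% of all genes in WT and 17.3% in KO. In KO against WT unstimulated cells 3 were higher and 0 lower, against 15.3% and 10.1% of all genes, and after GC correction 0 were higher and 1 lower, against 3.43% and 3.02%. Their part in the heat shock values was not tested. Time in culture may also differ between unstimulated and stimulated cells, and it cannot be told apart from the antibody here.

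**Figure D2:**
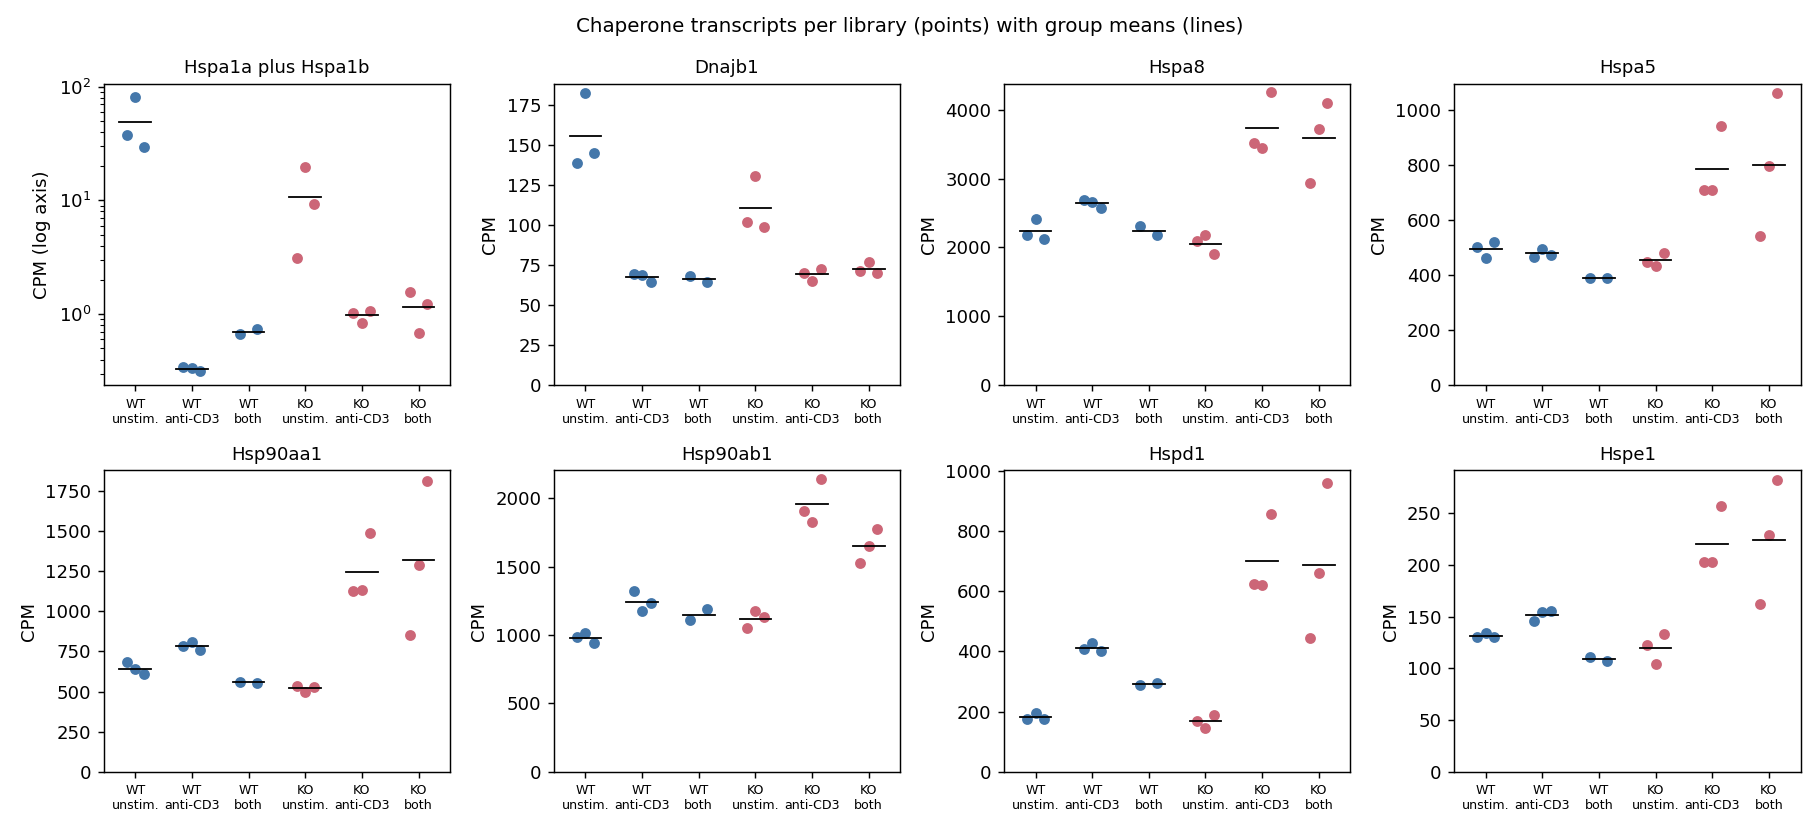
CPM of 7 chaperone genes and of Hspa1a plus Hspa1b (vertical axes, the latter on a log axis) in each library (points, blue for WT and red for KO) with group means (lines). Hspa1a plus Hspa1b reach 80.6 CPM in WT unstimulated cells and stay at or below 1.55 in every stimulated library, while for Hspa8, Hsp90aa1 and Hspd1 every stimulated KO library lies above the WT libraries given the same stimulation.

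The constitutive cytosolic HSP70, Hspa8, was the highest of the 33 per length of transcript in all 6 groups, from 859 ± 58.7 CPM per kilobase in KO unstimulated to 1562 ± 190 in KO anti-CD3 (SD, n = 3). In CPM it was 2695, 2666 and 2573 in WT anti-CD3 and 3512, 3441 and 4262 in KO anti-CD3. With both antibodies it was 2305 and 2175 in WT and 2934, 3720 and 4104 in KO, again without overlap. The KO against WT difference was 0.50 ± 0.12 with anti-CD3 (edgeR, adjusted p = 0.00808) and 0.68 ± 0.13 with both (adjusted p = 0.00521), and in unstimulated cells it was -0.12 ± 0.12 (adjusted p = 0.454). About 28.2% of the 100-base stretches of Hspa8 also occur in other genes, so its counts are uncertain to the extent that reads were divided, as are those of Hsp90aa1 (38.0% shared) and Ptges3 (17.3%).

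Hspa5, the HSP70 of the endoplasmic reticulum, was 466, 496 and 473 CPM in WT anti-CD3 and 710, 710 and 943 in KO anti-CD3. It was 389 and 388 in WT both and 543, 797 and 1062 in KO both. KO exceeded WT by 0.72 ± 0.17 and 1.04 ± 0.19 on the log2 scale (edgeR, adjusted p = 0.00857 and 0.00435). In WT cells neither stimulation changed it past the threshold (-0.05 and -0.35), whereas in KO cells it rose by 0.80 and 0.82. The mitochondrial Hspa9 differed between KO and WT by 0.57 with anti-CD3 and 0.99 with both antibodies, both past the threshold.

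Hspa4 and Hsph1 encode HSP110 proteins, which act as nucleotide exchange factors of HSP70. Hsph1 was 70.4, 83.5 and 78.3 CPM in WT unstimulated and 53.0, 57.3 and 44.5 in KO unstimulated, so that KO lay wholly below WT. With anti-CD3 the order was the opposite, with 121, 104 and 109 in WT and 163, 159 and 170 in KO. The KO against WT difference went from -0.58 ± 0.12 without stimulation (edgeR, adjusted p = 0.00816) to 0.56 ± 0.12 with anti-CD3 (adjusted p = 0.00544) and 0.76 ± 0.14 with both antibodies (adjusted p = 0.00425). The test of the genotypes' difference in response to anti-CD3 gave 1.14 ± 0.17 (adjusted p = 0.03), and Hsph1 was the 1 gene of the 33 past the threshold there, against 0.0492% of all genes with a larger value in KO and 0.00616% with a smaller one. After GC correction it was 1.05 with adjusted p = 0.00184. The call was lost (1.08 to 1.20, adjusted p = 0.0504 to 0.168) without any 1 of the 6 anti-CD3 libraries, either WT library given both antibodies, KO both replicate 2, KO unstimulated replicate 1, or WT unstimulated replicate 2 or 3. Hspa4 was higher in KO by 0.43 with anti-CD3 and by 0.79 with both.

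Among the HSP90 genes, the inducible cytosolic Hsp90aa1 and the constitutive cytosolic Hsp90ab1 were both higher in stimulated KO cells. Hsp90aa1 was 782, 807 and 758 CPM in WT anti-CD3 and 1124, 1130 and 1487 in KO anti-CD3. With both antibodies it was 561 and 556 in WT and 852, 1288 and 1813 in KO, the widest spread of the pair within a group. KO exceeded WT by 0.67 ± 0.18 with anti-CD3 (edgeR, adjusted p = 0.0191) and by 1.24 ± 0.21 with both (adjusted p = 0.00357), or 0.97 after GC correction.

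Hsp90ab1 was 1322, 1177 and 1234 CPM in WT anti-CD3 and 1910, 1829 and 2143 in KO anti-CD3. With both antibodies it was 1107 and 1193 in WT and 1528, 1653 and 1774 in KO, closer together than Hsp90aa1. The KO against WT differences were 0.66 ± 0.09 and 0.52 ± 0.10 (edgeR, adjusted p = 0.000187 and 0.00493). Hsp90b1, the HSP90 of the endoplasmic reticulum, differed by 0.42 ± 0.15 with anti-CD3, which missed the threshold (adjusted p = 0.0666) and passed it after GC correction, and by 0.81 ± 0.17 with both (adjusted p = 0.0081). Per length of transcript, Hsp90aa1 was between 0.327 and 0.785 of Hsp90ab1 in every library.

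Hspd1 (HSP60) and Hspe1 (HSP10) encode the barrel and the lid of the mitochondrial chaperonin and lie head to head on chr1 at 55077835 to 55088243 and 55088132 to 55091307, with 112 bases in common. Hspd1 was 177, 194 and 174 CPM in WT unstimulated, 408, 429 and 403 in WT anti-CD3, and 290 and 295 in WT both. In KO cells it was 169, 146 and 188 unstimulated, 626, 623 and 857 with anti-CD3, and 444, 662 and 962 with both antibodies. It rose with anti-CD3 by 1.19 ± 0.20 in WT and by 2.07 ± 0.20 in KO (edgeR, adjusted p = 0.00038 and 1.21e-06), the latter a 4.19-fold rise. Hspe1 rose with anti-CD3 by 0.88 ± 0.15 in KO (edgeR, adjusted p = 0.000191), and in WT the change was 0.20 ± 0.15 (adjusted p = 0.354). KO exceeded WT for Hspd1 by 0.76 with anti-CD3 and 1.24 with both, and for Hspe1 by 0.54 and 1.04, all past the threshold.

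The share of Hspd1 to Hspe1 therefore differed by stimulation. Per length of transcript the Hspd1 to Hspe1 ratio was 0.426 to 0.461 in WT unstimulated and 0.438 to 0.451 in KO unstimulated. It was 0.830 to 0.895 in WT anti-CD3, 0.830 and 0.882 in WT both, 0.982 to 1.06 in KO anti-CD3 and 0.873 to 1.09 in KO both. All 11 stimulated libraries lay above all 6 unstimulated libraries, with a mean log2 difference of 1.07 (two-sided exact permutation test over 12376 regroupings, p = 8.08e-05, the smallest it can give, and 0.000121 adjusted over 3 ratios). The regroupings took all 17 libraries as exchangeable, whatever their genotype. The 3 ratios were chosen after values had been seen, so their p-values describe the separation in these libraries and do not test it. Hsph1 to Hspa8 was the second of these ratios, with a difference of 0.56 and the same exact p. Hsp90aa1 to Hsp90ab1 was the last, with a difference of 0.20 (exact permutation p = 0.213). Hspd1 and Hspe1 have similar GC contents, 46.8% and 45.5%. They share 23.4% and 10.04% of their 100-base stretches with other genes, and how the counting divided such reads was not given in the sources used here.

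**Figure D3:**
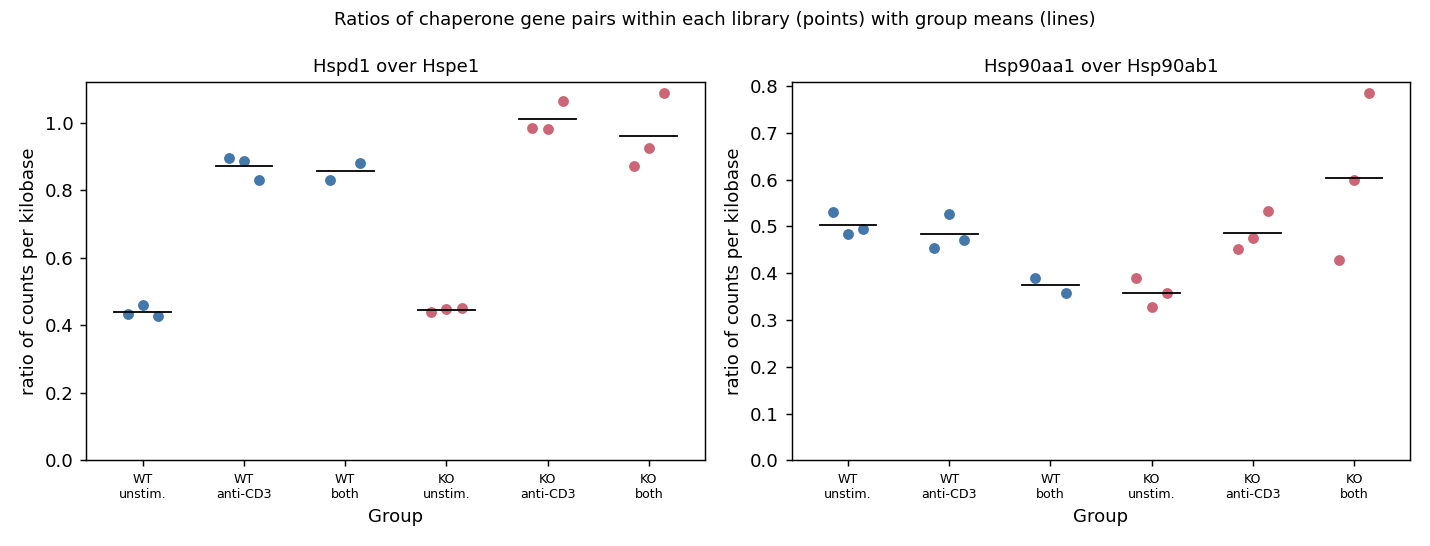
Ratio of counts per kilobase within each library (points, blue for WT and red for KO) with group means (lines) for Hspd1 over Hspe1 (left) and Hsp90aa1 over Hsp90ab1 (right). The left panel shows all 11 stimulated libraries above the 6 unstimulated ones, while in the right panel the groups overlap and KO both spreads from 0.428 to 0.785.

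The J-domain genes did not all change in 1 direction. Dnajb1, the main heat-inducible J-domain partner of HSP70, was 138, 182 and 145 CPM in WT unstimulated and 102, 130 and 98.4 in KO unstimulated. It fell to 64.5 to 69.5 in WT anti-CD3 and 65.2 to 72.7 in KO anti-CD3, where the genotypes overlap. Its fall with anti-CD3 was -1.20 ± 0.11 in WT (edgeR, adjusted p = 5.65e-07) and -0.67 ± 0.11 in KO (adjusted p = 0.000178), and KO was lower than WT by 0.49 before stimulation (fitted difference -0.49, adjusted p = 0.00953).

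Dnaja1, another HSP70 partner in the cytosol, was 363 to 387 CPM in WT unstimulated and 220 to 265 in KO unstimulated, a difference of -0.60 ± 0.12 (edgeR, adjusted p = 0.00725). With both antibodies it was 251 and 264 in WT and 286, 363 and 452 in KO (0.51 ± 0.14, adjusted p = 0.0233), a call lost after GC correction (0.20, adjusted p = 0.102). Dnaja2 and the ribosome-associated Dnajc2 were higher in KO with both antibodies (0.53 and 0.77) and did not pass with anti-CD3 (0.13 and 0.33). Dnajb6 passed in none of the 3 KO against WT comparisons and lay between 88.0 and 143 CPM in all 17 libraries.

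Among the co-chaperones, Stip1 (Hop), which links HSP70 to HSP90, and Ahsa1 (Aha1), which stimulates the ATPase of HSP90, were higher in KO cells under both stimulations. Stip1 was 121, 114 and 107 CPM in WT anti-CD3 and 175, 169 and 209 in KO anti-CD3, a difference of 0.70 ± 0.11 (edgeR, adjusted p = 0.000512). With both antibodies Stip1 differed by 0.64 ± 0.12 (adjusted p = 0.00511). Ahsa1 differed by 0.57 with anti-CD3 and by 0.37 with both (adjusted p = 0.0487), the latter lost after GC correction. Ptges3, which encodes the p23 co-chaperone, and Chordc1, an HSP90-binding protein, passed with both antibodies (0.84 each) and missed with anti-CD3 (0.38 and 0.25). After GC correction both passed with anti-CD3 too (0.44 and 0.40).

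Fkbp4, an immunophilin that binds HSP90, was 94.7, 81.9 and 78.3 CPM in WT anti-CD3 and 138, 134 and 170 in KO anti-CD3 (0.80 ± 0.13, edgeR, adjusted p = 0.000601). With both antibodies the groups overlapped, at 100 and 104 in WT and 121, 108 and 95.3 in KO (0.09 ± 0.14), and after GC correction the difference was 0.42 with adjusted p = 0.00273. In unstimulated cells Fkbp4 was higher in KO by 0.45, and after GC correction the value was -0.01. Fkbp4 has 55.5% GC.

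Cdc37 delivers kinases to HSP90. It was 68.1, 76.5 and 68.7 CPM in WT unstimulated and 105, 115 and 93.6 in KO unstimulated, a difference of 0.56 ± 0.10 (edgeR, adjusted p = 0.00592). With anti-CD3 it was 72.8, 70.1 and 69.4 in WT and 91.1, 87.2 and 104 in KO (0.41 ± 0.10, adjusted p = 0.0128). With both antibodies the order turned, at 93.7 and 95.2 in WT and 90.4, 78.8 and 69.3 in KO, but the difference of -0.25 ± 0.12 missed the threshold (adjusted p = 0.141). The genotypes' responses to both antibodies differed by -0.81 ± 0.15 (edgeR, adjusted p = 0.00368), and by -0.70 after GC correction (adjusted p = 0.00206).

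Hsf1, the factor itself, was 26.9, 31.1 and 34.5 CPM in WT unstimulated and 36.5, 51.7 and 41.1 in KO unstimulated (0.49 ± 0.15, edgeR, adjusted p = 0.0226). That call was lost after GC correction (0.19, adjusted p = 0.237). It did not differ past the threshold with anti-CD3 (0.39, adjusted p = 0.0771) or with both antibodies (-0.30, adjusted p = 0.199). Bag3, a co-chaperone of HSP70 that is strongly induced by heat in many cells, was between 0.962 and 3.47 CPM in all libraries and passed in none of the 3 KO against WT comparisons.

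The 8 subunit genes of TRiC, a ring of 8 different proteins, were all higher in KO than in WT with both antibodies, by 0.43 (Cct7) to 1.02 (Cct6a), each past the threshold. After GC correction Cct7 no longer passed (0.23, adjusted p = 0.125) and the other 7 did. With anti-CD3 5 of the 8 passed: Cct2 (0.41), Cct3 (0.61), Cct5 (0.49), Cct6a (0.55) and Cct7 (0.65). Tcp1, Cct4 and Cct8 differed by 0.39, 0.24 and 0.42 without passing, and each passed after GC correction. Cct8 was 294, 303 and 297 CPM in WT anti-CD3 and 371, 364 and 462 in KO anti-CD3. With both antibodies Cct8 was 211 and 222 in WT and 282, 403 and 535 in KO, so no library overlapped. In unstimulated cells 0 of the 8 passed, with values from -0.19 to 0.25, and Cct7 (0.25) passed after GC correction (0.44, adjusted p = 0.00847).

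Per length of transcript the highest TRiC subunit gene (Cct2 or Cct5) exceeded the lowest by 1.82 times in KO anti-CD3 to 2.30 times in KO unstimulated. Cct2 and Cct5 were the top pair and Tcp1 the next in all 6 groups, while the lowest was Cct7 in 3 groups, Cct6a in 2 and Cct4 in 1. In WT unstimulated cells Cct2 was 165 ± 11.7 and Cct7 73.1 ± 4.92 CPM per kilobase (SD, n = 3). The neighbours Cct8 (98.9 ± 4.14), Cct3 (94.1 ± 5.71) and Cct4 (93.4 ± 2.58) did not differ beyond their SDs, and Cct6a lay at 85.9 ± 4.03. Lengths are those of the annotated principal transcript, except for Cct6a, which the annotation types as a processed transcript and whose longest transcript was used.

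**Figure D4:**
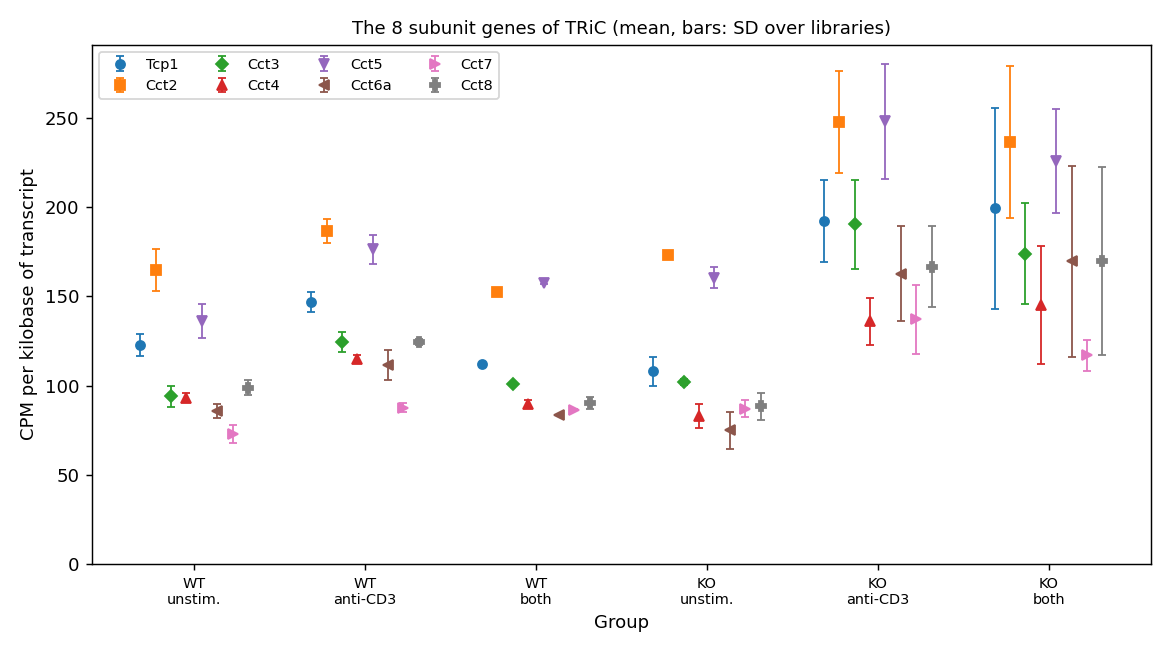
Mean CPM per kilobase of the 8 TRiC subunit genes (symbols) in the 6 groups, with bars for the SD over the libraries (n = 3, or n = 2 for WT with both antibodies). Cct2 and Cct5 lie highest in every group, and the KO stimulated groups lie above the WT groups given the same stimulation for all 8 subunits, with wide bars in KO both.

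Against unstimulated cells most of these genes rose in KO, and the counts in WT depended on the fit. With anti-CD3, 26 of the 33 rose and 3 fell in KO cells, against 19.6% and 17.3% of all genes, with a median change of 0.83. In WT cells 12 rose and 3 fell with anti-CD3, against 11.3% and 13.1% of all genes, with a median of 0.30. With both antibodies 27 rose and 4 fell in KO cells, against 23% and 22.5% of all genes, with a median of 0.80. In WT cells 7 rose and 4 fell, against 17.8% and 16.3% of all genes, with a median of -0.01. Counts of calls do not test a difference between genotypes, and the test of that difference called 1 of the 33 for anti-CD3 and 26 for both antibodies. When only the groups compared were fitted, 23 rose with anti-CD3 in WT and 26 in KO. No share of all genes stands beside these counts, so they describe that fit and are no result about the chaperones. After GC correction 25 rose and 4 fell in KO cells given both antibodies (Dnaja1, Dnaja2 and Cct7 lost and Bag3 gained), against 21.2% and 22.7% of all genes. The comparisons within a genotype share their unstimulated libraries. In WT cells with both antibodies the count was 4 without replicate 2 and 6 without replicate 3 of that group, 7 without WT unstimulated replicate 1, and 14 after GC correction (10 rose and 4 fell, against 15.2% and 17.5% of all genes). With anti-CD3 in WT it was 23 after GC correction (19 rose and 4 fell, against 15.9% and 18.2%).

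The genes that fell with anti-CD3 in both genotypes were Hspa1a, Hspa1b and Dnajb1. In KO cells given both antibodies Cdc37 also fell, by 0.40 (fitted change -0.40, adjusted p = 0.00503, edgeR), and in WT cells given both antibodies Dnaja1 fell (-0.55, adjusted p = 0.00623) while Cdc37 rose (0.41, adjusted p = 0.0116). Hspd1 had the largest fitted rise of the 33 in KO cells under both stimulations, and Hsph1 the next, by 1.66 ± 0.13 with anti-CD3 and 1.63 ± 0.13 with both (edgeR, adjusted p = 2.7e-08 and 3.76e-08). Ptges3 rose by 1.36 and 1.52 in KO cells. In WT cells given anti-CD3, Bag3 (0.79) had the largest rise after Hspd1, on 1.68 to 2.90 CPM.

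Adding anti-CD28 to anti-CD3 changed 0 of the 33 genes in either genotype by edgeR, where 0% of all genes were called. At an unadjusted p under 0.05 by edgeR, 2 were higher and 11 lower in WT, where 21.6% of all genes passed. In KO 0 were higher and 5 lower, where 8.99% of all genes passed. DESeq2 called 1 higher in WT and 0 in KO, where it called 3.18% and 0% of all genes. Limma voom with quality weights called 4 higher and 21 lower in WT and 5 higher and 5 lower in KO, where it called 37.3% and 34.2% of all genes. Hspd1, for example, was 403 to 429 CPM in WT anti-CD3 and 290 and 295 in WT both (-0.50 ± 0.22, edgeR, adjusted p = 0.214), without overlap. With the 2 libraries of most extreme tilt left out, edgeR called 18 of the 33 in WT (2 higher, 16 lower), where it called 2932 of all genes (1611 higher, 1321 lower). After GC correction it called 0.

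The test of whether the response to both antibodies differed between genotypes gave 24 genes with a larger value in KO and 2 with a smaller one (Cdc37 and Hsf1), against 18.3% and 19.2% of all genes. After Hspa1b (3.18 ± 0.96), which rests on few counts in stimulated libraries, Hsp90aa1 had the largest of these, 1.54 ± 0.28 (edgeR, adjusted p = 0.0035), followed by Hspd1 (1.35) and Hsph1 (1.34). After GC correction 21 were larger and 1 (Cdc37) smaller, against 8.46% and 7.15% of all genes, and 20 of the 26 calls held their direction and passed. Those lost were Dnaja2, Dnajc2, Chordc1, Hsf1, Tcp1 and Cct2.

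The 33 genes were split by GC content at 50%. Without stimulation the KO against WT median was -0.17 for the 22 genes below it and 0.19 for the 11 at or above it, and after GC correction 0.01 and -0.01. With both antibodies the KO against WT median was 0.80 for the genes below 50% GC and 0.14 for those at or above it. After GC correction these medians were 0.54 and 0.36. With anti-CD3 the medians were 0.47 and 0.49 as counted and 0.49 and 0.40 after correction.

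**Figure D5:**
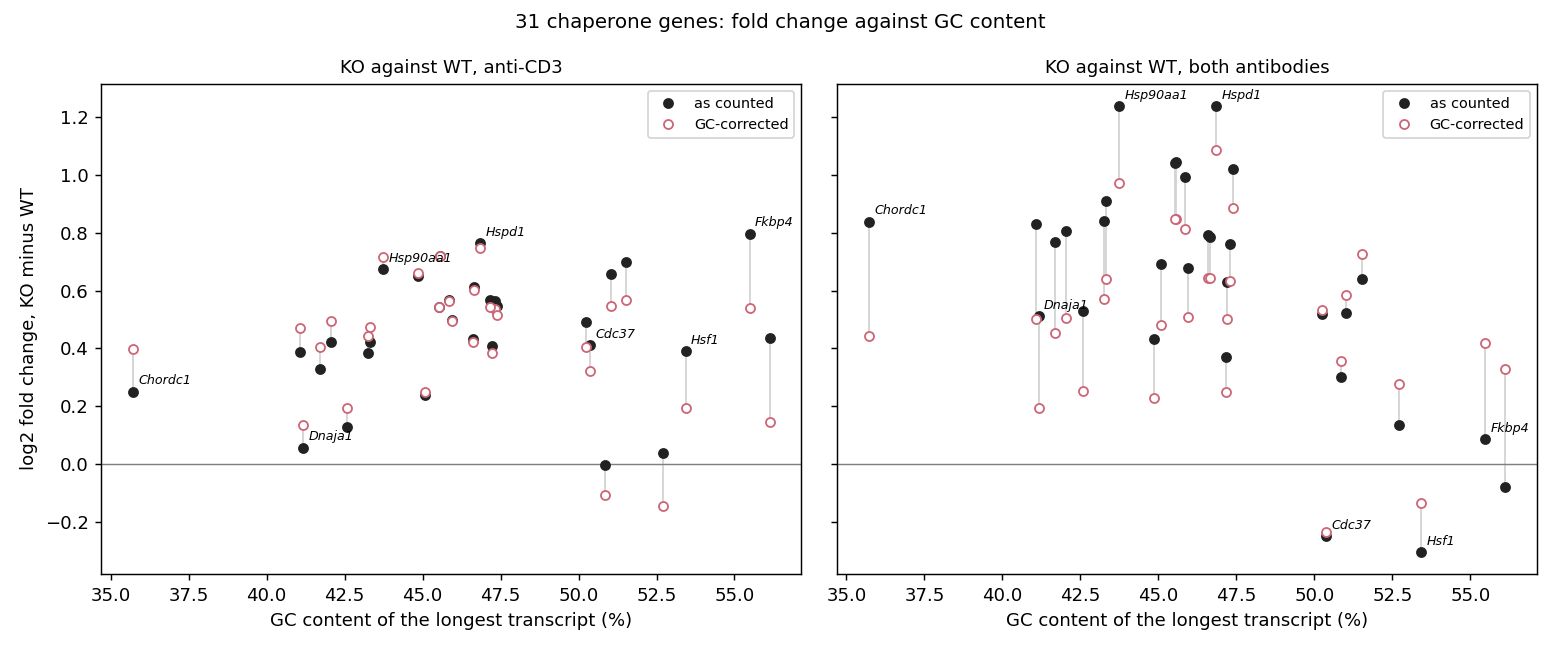
KO against WT log2 fold change of 31 genes (all but Hspa1a and Hspa1b) against the GC content of the gene, as counted (black) and after GC correction (open red), for anti-CD3 (left) and both antibodies (right). In the right panel genes of low GC move down and Fkbp4 and Bag3 move up with the correction, while most genes stay above 0 in both panels.

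Other genes of protein folding were taken from lists by function. Of 23 genes tested of folding in the endoplasmic reticulum, 13 were higher in KO with anti-CD3 and 12 with both antibodies, 0 lower, with medians of 0.41 and 0.47. Of all genes 10.5% were higher and 4.8% lower with anti-CD3, and 9.84% and 6.3% with both. After GC correction 9 were higher and 1 lower with anti-CD3, against 10.8% and 11.6% of all genes, and 15 were higher and 0 lower with both, against 9.94% and 7.69%. With anti-CD3 the smallest adjusted p values (edgeR) belonged to Hyou1, an HSP70 relative of the endoplasmic reticulum (0.82 ± 0.10, adjusted p = 8.07e-05), the Hspa5 partner Sdf2l1 (1.12 ± 0.15, adjusted p = 0.000185), and the disulfide isomerases Pdia6 (0.65) and P4hb (0.44). With both antibodies they belonged to Pdia6 (0.66), Pdia4 (0.56), the lectin chaperone Canx (0.84) and Pdia3 (0.77).

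Of 40 further cytosolic chaperones and co-chaperones, 35 were tested, of which 4 were higher and 0 lower in KO with anti-CD3 and 9 higher and 2 lower with both antibodies, with medians of 0.14 and 0.12. Counts in this paragraph are to be read against all genes, 10.5% higher and 4.8% lower with anti-CD3 and 9.84% and 6.3% with both antibodies. After GC correction these shares were 10.8% and 11.6% with anti-CD3 and 9.94% and 7.69% with both. The share of 4 in 35 is near that of all genes with anti-CD3 (10.5%). After GC correction 5 of the cytosolic genes were higher and 3 lower with anti-CD3, and 8 were higher and 2 lower with both. The phosphatase Ppp5c, which binds HSP90, was higher by 0.88 ± 0.13 with anti-CD3 (edgeR, adjusted p = 0.000365), and the HSP70-binding St13 by 0.68 ± 0.14 with both (adjusted p = 0.00659). The J-domain gene Dnajb12 was lower with both antibodies (-0.60). Of 13 mitochondrial folding and protease genes, 5 were higher and 1 lower with anti-CD3, led by the mitochondrial HSP90 Trap1 (0.45, adjusted p = 0.00149, edgeR) and the protease Lonp1 (0.75), and 3 were higher and 0 lower with both. After GC correction the mitochondrial counts were 6 and 1 with anti-CD3 and 4 and 1 with both. Of 6 prefoldin subunits, which hand actin and tubulin to TRiC, 3 were higher with anti-CD3 and 1 with both, 0 lower, and after GC correction 4 and 1. Of 7 further genes of heat shock factors and of proteins that bind them, 4 were tested and 0 were called by edgeR in either comparison. At an unadjusted p under 0.05 there were 0 with anti-CD3 and 1 with both antibodies, where 29.8% and 33.4% of all genes passed. The 1 was Hsf2 (0.56, edgeR, adjusted p = 0.0551), named after its value was seen.

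Without stimulation the counts higher and lower in KO are to be read against 15.3% and 10.1% of all genes. They were 3 and 2 of the endoplasmic reticulum genes, 7 and 3 of the cytosolic genes and 3 and 2 of the mitochondrial genes. For the prefoldin subunits they were 2 and 0, and for the heat shock factors with their binding proteins 0 and 1. After GC correction, against 3.43% and 3.02% of all genes, they were 1 and 2, 3 and 2, 1 and 0, 1 and 0, and 0 and 0 in the same order.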

How the data were processed

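RNA from 17 CD8+ T cell samples was sequenced with a stranded total RNA kit, per the labels' protocols. The authors deposited whole-number counts per gene; STAR 2.5.2, RSEM 1.3.0 and the mm10 genome are named in the submitters' processing notes, while for the annotation release, the strand setting and the step from estimated to whole counts the answer is not given in the sources used here. WT replicate 1 with both antibodies was not analysed here. Of the 53679 IDs, 53650 matched a GENCODE annotation of GRCm38.

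The counts were filtered by group with edgeR 4.0.16 (R 4.3.3), scaled by TMM and fitted with 1 coefficient per group over the 17 libraries by the robust quasi-likelihood method, with p-values Benjamini-Hochberg adjusted over all 16246 genes. A gene was called at an adjusted p under 0.05. The common biological coefficient of variation was 0.153. On simulated data with 200 changed genes of 16246, a 2-fold change was recovered for 96% of genes in KO against WT with anti-CD3. It was recovered for 85.5% with both antibodies and 96.5% without stimulation, and a 1.5-fold change with anti-CD3 for 24%. The simulation gave every gene the same spread, held no GC tilt and changed no genes of low expression, so recovery in the real libraries may be lower.

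GC correction removed a loess trend (span 0.3) of log2 values on transcript GC content from each library, and 99.91% of tested genes had a GC value. Alternatives were DESeq2 1.42.0, voom of limma 3.58.1 with sample weights, scaling by relative log expression, a low-count filter that was dropped or set to 1 CPM in at least 3 samples, a fit of the compared groups alone, a replicate block, the block with GC correction, leaving out the 2 libraries of most extreme GC tilt (KO unstimulated replicate 2 and KO both replicate 3), and leaving out each library. Summing Hspa1a with Hspa1b was added after the data had been seen. Promoter windows came from RefSeq (GRCm38.p6). Figures were drawn with matplotlib 3.10.9.

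The members and the gene lists were chosen with earlier results of these data known. The text names all 33 members, Cblb, and from each other list up to 4 genes per direction with the smallest adjusted p among those called. The lists were the cytosolic, endoplasmic reticulum, mitochondrial and prefoldin folding genes, and heat shock factors with proteins that bind them. Further lists were immediate-early genes, housekeeping genes and the markers of CD8, CD4, B, NK, myeloid and erythroid cells. Ero1a and Ero1b were not used here. A called gene of the cytosolic list is not reported here by name. Replicates were compared by a chi-square per gene, which was 3.79 to 576, so none were counted as 1 sample.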

Additional observations from a re-analysis of the deposited data

Results flagged for a closer look

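The response to stimulation differed between KO and WT for the genes below, by edgeR's test of the KO log2 change minus the WT log2 change. A positive value means that the KO change lay above the WT change, whichever way the gene moved in each genotype. For anti-CD3 this was Hsph1, at 1.14, against 0.0492% of all genes with a larger value in KO and 0.00616% with a smaller one. That call was lost when any 1 library of the anti-CD3 groups was left out, and in the further fits named above.

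For both antibodies 24 of the 33 had a larger value in KO and 2 a smaller one, against 18.3% and 19.2% of all genes. The HSP70 and HSP110 genes among them were Hspa1b (3.18), Hspa8 (0.801), Hspa5 (1.17), Hspa9 (1.11), Hspa4 (0.982) and Hsph1 (1.34). The HSP90 genes were Hsp90aa1 (1.54) and Hsp90b1 (0.984), and the mitochondrial chaperonin genes Hspd1 (1.35) and Hspe1 (1.18).

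The J-domain genes were Dnaja1 (1.11), Dnaja2 (0.741), Dnajb1 (0.628), Dnajb6 (0.473) and Dnajc2 (0.865). Among the co-chaperones the values were 0.561 for Stip1, 1.22 for Chordc1, 1.19 for Ptges3 and -0.807 for Cdc37, and for Hsf1 the value was -0.796.

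The TRiC subunits were Tcp1 (1.01), Cct2 (0.560), Cct3 (0.668), Cct4 (0.864), Cct6a (1.22) and Cct8 (1.07). For Hspa1b and Dnajb1 the positive value is a smaller fall in KO, since both genes fell in both genotypes. Dnaja1 fell in WT and rose in KO, while Cdc37 rose in WT and fell in KO. The GC tilt of the libraries differed between the 4 groups of this comparison, and 6 of the 26 genes (Dnaja2, Dnajc2, Chordc1, Hsf1, Tcp1 and Cct2) no longer passed after GC correction.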

How the results depend on the processing

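Counts are of the 33 genes called in either direction. Where no share of all genes stands beside a count in this section, the count describes the setting only and is no result about the 33 genes. Fitting only the groups compared gave 0 for KO against WT with both antibodies. It gave 27 for WT anti-CD3 against unstimulated (23 higher, 4 lower) and 20 for WT both against unstimulated (13 higher, 7 lower). For WT both against anti-CD3 it gave 25 (3 higher, 22 lower). For the genotypes' difference in response to anti-CD3 it gave 15 (15 higher, 0 lower). Limma voom gave 25, 20, 25 and 17 for the last 4 of these, where it called 35.3%, 51.9%, 37.3% and 5.65% of all genes. For KO both against anti-CD3 voom gave 10, where it called 34.2% of all genes. DESeq2 gave 1 for WT both against anti-CD3 and 6 for the difference in response to anti-CD3, where it called 3.18% and 1.3% of all genes. GC correction gave 23 for WT anti-CD3 against unstimulated and 8 for the difference in response to anti-CD3. It called 34.1% and 2.28% of all genes there. Without the 2 libraries of most extreme tilt the counts of 23 and 8 became 24 and 7, and WT both against anti-CD3 was 18.

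Leaving out each library in turn gave, for KO against WT, 5 to 11 without stimulation (8 with all libraries), 8 to 23 with anti-CD3 (18) and 0 to 28 with both antibodies (25). For stimulated against unstimulated it gave 11 to 22 (15) and 4 to 12 (11) in WT and 27 to 30 (29) and 30 to 32 (31) in KO, in the order anti-CD3 and both. It gave 0 to 8 in WT and 0 to 1 in KO for both against anti-CD3, 0 to 15 for the difference in response to anti-CD3 and 22 to 27 for that to both. The count of 5 came without KO unstimulated replicate 2.

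Of 9796 single-gene values under 27 settings, 9144 kept their direction and side of the threshold, 274 lost and 374 gained the call, and 4 changed direction, all of Fkbp4. For KO against WT without stimulation it was -0.0061 after GC correction and -0.0042 with the block added. For the difference in response to both antibodies it was 0.43 in each of these. The cause of the other changes was not tested.

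Deviations of same-numbered replicates had r from -0.18 to 0.29 (median 0.022, 3 of 40 over 0.1). Those of differently numbered replicates had r from -0.34 to 0.27 (median -0.008, 6 of 80 over 0.1). With 2 or 3 libraries in a group these values cannot settle whether the numbers pair the samples. The replicate block gave counts of 8, 18 and 24 for KO against WT in the 3 states, and with GC correction it gave 23 for WT anti-CD3 against unstimulated and 12 for the difference in response to anti-CD3. Intervals and tests cover these libraries only, and 2 WT libraries with both antibodies limit every comparison that uses them.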
